A study of Mus musculus with 12 samples.

Results

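The genes described here are 43 genes of mitosis and cytokinesis, taken by symbol from the 35453 rows of the mRNA table by a rule that sets no condition on their values, although the list was drawn up with earlier results of these data known. All 43 were present, and all passed the filter on low values, so that they were tested among 14098 genes. Every library came from a 4T1 tumour grown in a Balb/c mouse and removed 35 days after inoculation; 4T1 is a mouse mammary carcinoma line. The 3 stress libraries came from mice restrained for 2 hours a day over 28 consecutive days, and the 3 control libraries from untreated mice. The comparison asks how the transcripts of dividing cells differed between stressed and untreated tumours. The labels name no transgene, do not give the sex or age of the mice, and do not say that each library came from a separate mouse, so the p-values measure the spread between these libraries, which may be technical.

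Cells enter mitosis when the kinase Cdk1, bound to cyclin A or cyclin B, phosphorylates a large set of proteins, and the Polo and Aurora kinases then separate the centrosomes, build the spindle and correct its attachments. Kinetochores tie the chromosomes to spindle microtubules and hold back the anaphase-promoting complex until all are attached. That complex then destroys securin and cyclin B, and the central spindle directs the cleavage of the cell. Most of these transcripts are made late in the cell cycle, so in a tumour they serve as markers of dividing cells.

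All 43 genes had a lower mean in the stressed tumours, where 49.4% of all genes tested did. The median difference, stress minus control, was -0.24 on the log2 scale, against 0.0014 over all genes, and single genes ran from -0.45 (Plk1) to -0.11 (Ube2c and Anln). Averaged over the 43, the log2 values of the controls (replicates 1, 2 and 3, the order used throughout) were 10.53, 10.60 and 10.54, and those of the stress libraries 10.27, 10.40 and 10.25. The groups did not overlap, and stress replicate 2 lay nearest to the controls. In these bulk samples, fewer dividing cells and less of these RNAs per cell cannot be told apart.

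No gene of the 43 passed the adjusted p of 0.05 (limma with Benjamini-Hochberg adjustment over all genes), a threshold that 0.0142% of all genes passed in the lower direction. At an adjusted p of 0.1 there were 4 genes, Mad2l1, Plk1, Birc5 and Nuf2, all lower, where 0.340% of all genes were called lower. At an unadjusted p of 0.05, 35 of the 43 were lower and none higher, against 9.15% of all genes lower. All stress libraries lay below all control libraries for 34 of the 43, which is 79.1%, against 12.3% of all genes. With 1 library left out, Plk1 passed 0.1 without control replicate 1, and Plk1 and Kif20a without stress replicate 2. None of the 43 passed it in the fits that left out any of the remaining 4 libraries. Of all genes, 108 were lower past 0.1 without control replicate 1, 14 without stress replicate 2, and 0 to 3 in the other fits. The differences themselves stayed within -0.50 to -0.39 for Plk1, -0.40 to -0.33 for Mad2l1, -0.37 to -0.30 for Birc5 and -0.39 to -0.32 for Nuf2 in these fits of 5 libraries.

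**Figure D1:**
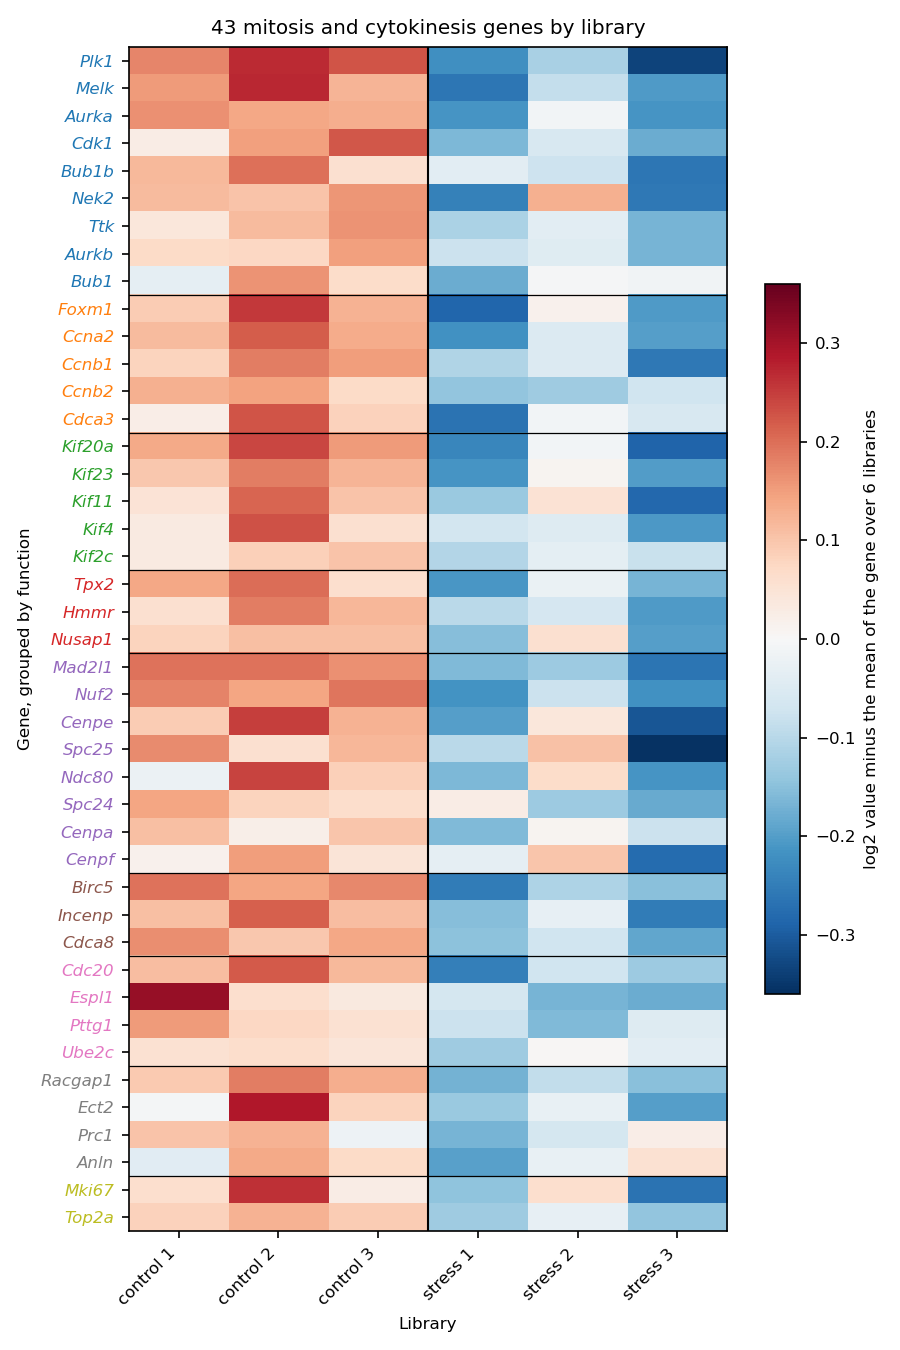
Each row is a gene, grouped and coloured by function, each column a library, and the colour gives the log2 value minus the mean of that gene over the 6 libraries. The 3 control columns are mostly above the gene's mean and stress replicates 1 and 3 mostly below it; stress replicate 2 is paler, with the lowest value of only 1 gene.

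Control replicate 2 held the highest value of 28 genes, control replicate 1 of 9 and control replicate 3 of 6. The lowest value fell in stress replicate 3 for 25 genes, in stress replicate 1 for 17 and in stress replicate 2 for 1. No control library was the lowest, and no stress library the highest, for any of the 43.

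Markers of other cells in the same libraries also had different group means, though none passed an adjusted p of 0.05; the smallest belonged to the fibroblast marker Thy1 (0.0769) and the neutrophil marker Csf3r (0.0881). Neutrophil markers were higher in mean in 8 of 10 tested genes; their list mean was 7.71 to 7.78 in control and 7.89 to 8.49 in stress, and stress replicate 2 was the lowest of the stress libraries. The neutrophil surface gene Ly6g, named after its value was seen, was near 0, at -0.10 to -0.05, while Csf3r differed by 0.62 and Il1b by 0.35 (adjusted p = 0.355, with overlapping groups). With the neutrophil mean as a covariate the median difference of the 43 genes was -0.13 and 37 of them were lower. Of the 43, 8 in place of 35 were lower at an unadjusted p under 0.05. Of all 14098 genes, 540 in place of 1290 were. None of the 43 passed an adjusted p of 0.1, nor did any other gene lower in stress. Skeletal muscle markers were lower in all 16 genes (8.61 to 9.79 in control, 7.66 to 8.87 in stress), fibroblast markers in 9 of 10 (11.48 to 12.25 against 11.27 to 11.5) and endothelial markers in all 10 (8.58 to 8.84 against 8.26 to 8.44). Of the adipocyte markers 2 of 7 were tested, Fabp4 (-0.67) and Lpl (-0.75), both lower without overlap (8.01 to 8.75 against 7.45 to 7.92). At an unadjusted p of 0.05 there were 4 neutrophil markers higher, and 6 muscle, 6 fibroblast, 7 endothelial and 2 adipocyte markers lower. Of all 14098 genes, 1165 were higher and 1290 lower at that p. The muscle and fibroblast list means of the groups overlapped. The part of these other cells in the lower mitotic values was not tested. The neutrophil mean separated the groups, so as a covariate it cannot be told apart from stress.

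Markers of carcinoma epithelium, which check the labelled tumour, were well detected, with Krt18 at 13.87 ± 0.073 (SD, n = 3) in control and 13.98 ± 0.11 in stress. Krt8, the other leading keratin, differed by -0.02 between the groups. Their list mean did not follow the group: it was 10.01 to 10.16 in control and 9.94 to 10.23 in stress, with 8 genes lower and 6 higher. Set against that mean in each library, the median of the 43 genes was -0.22 and all 43 were still lower. Of the 43, 8 in place of 34 then had all stress libraries below all control libraries. The same held for 354 in place of 1733 of all 14098 genes. Macrophage markers (10.82 to 11.17 in control, 10.92 to 11.14 in stress) and T and NK cell markers (6.18 to 6.62 and 6.26 to 6.61) overlapped as well. B cell markers ran from 2.31 to 3.60, below the filter.

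**Figure D2:**
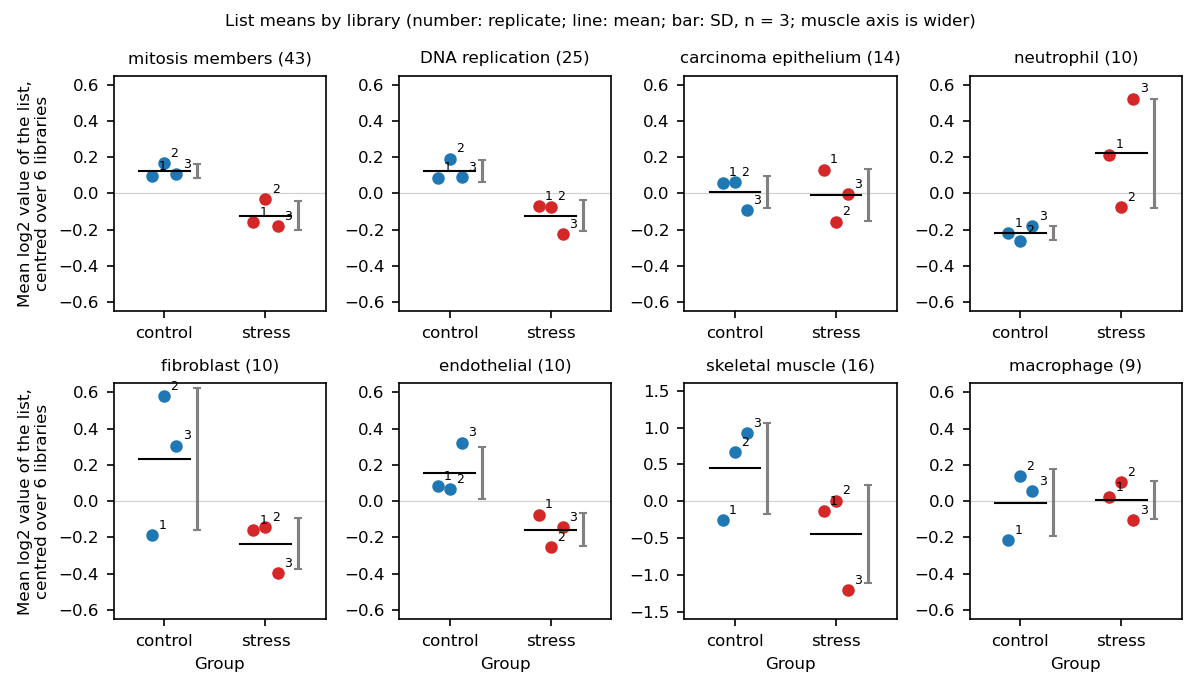
Each panel shows the mean log2 value of a gene list in the 6 libraries, centred on their mean, with replicate numbers, group means and SD (n = 3); the muscle axis is wider than the others. The mitotic and DNA replication means separate the groups, the neutrophil mean is higher in all 3 stress libraries, and the epithelium and macrophage means overlap.

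The promoters show what the genes share in sequence. Promoter windows from 250 bases before to 50 after the transcript start (RefSeq, GRCm38.p6, the assembly of mm10) were found for 36 of the 43 genes, 38 windows in all. Each was searched on both strands for the cell cycle genes homology region or CHR (TTTGAA or TTTAAA), the element bound by the MuvB core of the DREAM complex, which represses such genes in resting cells and, with B-Myb and Foxm1, activates them late in the cycle. The search also took the CCAAT box, bound by NF-Y, and E2F-type letters (TTTGGCGC, TTTCCCGC, TTTGCCGC or TTTCGCGC); overlapping matches were each counted. A match is a description of letters and not of a bound site.

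CHR letters stood in 31 of the 38 windows (81.6%), against 27.6% of all 32851 windows in the table. They lay within the 50 bases on either side of the start in 28 windows (73.7%), against 8.28% of all. CCAAT was present in 76.3%, against 37.4% of all, and was found at least 2 times in 52.6%, against 11.7%. Both elements together stood in 71.1% of the windows, against 10.7% of all. E2F-type letters stood in 1 window of the 38 (2.63%), that of Cdk1, against 2.26% of all. In the windows of 25 DNA replication genes, listed for comparison, they stood in 9 of 24 (37.5%). CCAAT stood in 15 of these 24 (62.5%), and at least 2 times in 8 (33.3%). A raised share of CCAAT was thus not particular to the mitotic genes. CHR letters stood in 6 of the 24 replication windows, and both elements together in 4 (16.7%). In the 38 mitotic windows the median position was -5 for the first base of a CHR match and -66 for CCAAT, counting the start as 1.

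The 150 bases before the start are printed for 6 genes, 5 that carry both elements at different spacings and Nuf2, which has no match to any of the 3 motifs in its whole window. They lie at chr10:69352913-69353062 on the minus strand for Cdk1, chr7:122159285-122159434 on the plus strand for Plk1 and chr13:100786487-100786636 on the minus strand for Ccnb1. The others lie at chr4:118437344-118437493 on the minus strand for Cdc20, chr11:99024190-99024339 on the minus strand for Top2a and chr1:169531465-169531614 on the minus strand for Nuf2. Capitals mark the matches to the 3 motifs on either strand, and each line runs 5′ to 3′ on the strand of the gene.
Cdk1: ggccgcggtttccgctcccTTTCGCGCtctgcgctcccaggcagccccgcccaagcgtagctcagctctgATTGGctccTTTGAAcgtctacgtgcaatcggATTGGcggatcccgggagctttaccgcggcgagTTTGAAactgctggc
Plk1: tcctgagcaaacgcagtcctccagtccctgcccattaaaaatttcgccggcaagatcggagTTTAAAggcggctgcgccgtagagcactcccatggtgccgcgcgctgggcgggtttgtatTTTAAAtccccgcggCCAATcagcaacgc
Ccnb1: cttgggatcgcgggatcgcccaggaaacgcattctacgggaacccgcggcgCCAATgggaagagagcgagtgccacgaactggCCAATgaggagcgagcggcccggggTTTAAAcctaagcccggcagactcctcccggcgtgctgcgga
Cdc20: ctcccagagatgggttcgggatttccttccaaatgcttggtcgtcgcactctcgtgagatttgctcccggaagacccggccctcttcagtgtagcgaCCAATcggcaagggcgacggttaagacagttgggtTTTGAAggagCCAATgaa
Top2a: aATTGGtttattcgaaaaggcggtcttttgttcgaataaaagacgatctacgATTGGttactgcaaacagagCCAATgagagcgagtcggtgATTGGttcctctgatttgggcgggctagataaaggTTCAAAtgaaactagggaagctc
Nuf2: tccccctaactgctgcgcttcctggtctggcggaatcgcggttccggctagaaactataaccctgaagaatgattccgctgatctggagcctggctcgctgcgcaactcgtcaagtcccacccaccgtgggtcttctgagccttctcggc

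In the Cdk1 promoter the CHR letters start at -71 and -15, with CCAAT boxes between and before them. Plk1 carries TTTAAA at -89 and -29, and a further match inside its transcript at 31. In Ccnb1 a single TTTAAA starts at -42, downstream of a pair of CCAAT boxes, in Cdc20 TTTGAA starts at -18, and in Top2a a CHR on the opposite strand starts at -23 behind a row of CCAAT boxes. A further CHR match of Top2a starts at -179, before the printed bases.

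The differences between stress and control did not separate by CHR or CCAAT letters, as the ranges overlapped. The median was -0.24 (range -0.45 to -0.11) for the 29 genes with CHR letters and -0.25 (range -0.37 to -0.13) for the 7 without. For CCAAT it was -0.24 (range -0.45 to -0.11) in the 27 genes with it and -0.20 (range -0.37 to -0.11) in the 9 without. Among the 4 genes past an adjusted p of 0.1, Plk1 and Birc5 carry CHR letters, the latter at -220, while the windows of Mad2l1 and Nuf2 hold none of the 3 motifs. The Mad2l1 window did not match the 5′ part of a GENCODE M21 transcript.

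**Figure D3:**
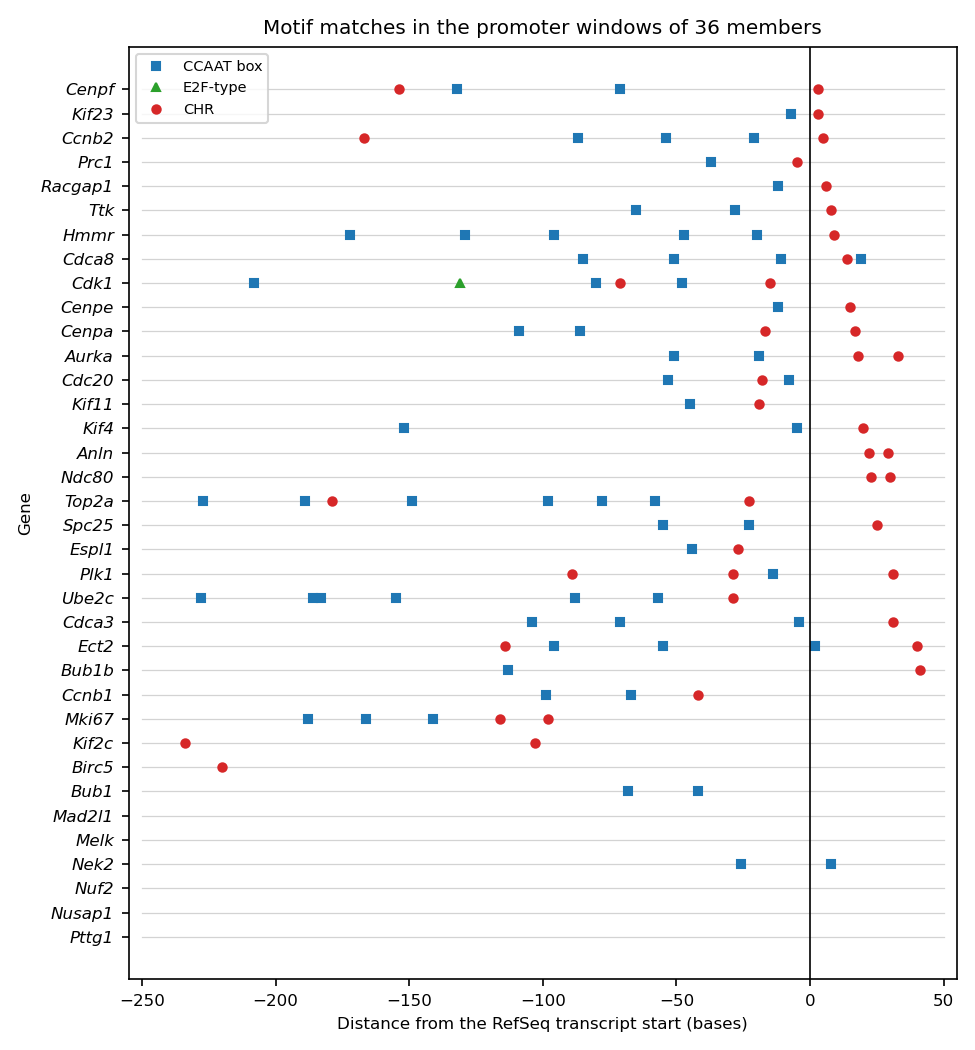
Each line is the promoter window of a gene (the first listed where a gene has more than 1), with the first base of each CHR, CCAAT and E2F-type match plotted by its distance from the RefSeq start. CHR matches gather around the start, CCAAT boxes mostly lie before it, and Mad2l1, Melk, Nuf2, Nusap1 and Pttg1 show no match.

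The mitotic kinases were lower in all 9 genes, with a median of -0.25. Plk1, the Polo kinase of spindle assembly and mitotic exit, stood at 10.64, 10.73 and 10.69 in the controls and at 10.24, 10.35 and 10.13 in the stress libraries. Its difference of -0.45 ± 0.066 (SE; 1.36-fold lower, limma adjusted p = 0.0769) was the most negative of the 43, and the lowest control lay above the highest stress value. Melk, a kinase expressed in dividing and progenitor cells, had 9.52, 9.64 and 9.49 in control and 9.11, 9.28 and 9.17 in stress, a difference of -0.37 ± 0.069 (adjusted p = 0.106), also without overlap.

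Cdk1 itself, the master kinase of mitotic entry, differed by -0.27 ± 0.066 (adjusted p = 0.141), its control values at 10.57 to 10.77 and its stress values at 10.36 to 10.49. Aurka, which acts at centrosomes and on the spindle, differed by -0.29 (adjusted p = 0.129), and Aurkb, the kinase of the chromosomal passenger complex, by -0.19 (adjusted p = 0.168). The spindle checkpoint kinases Bub1b (-0.25) and Ttk (-0.21) did not overlap between groups, while Bub1 (-0.13, adjusted p = 0.402) and the centrosomal kinase Nek2 (-0.25, adjusted p = 0.283) did. For Nek2 the overlap came from stress replicate 2, at 9.95 beside controls of 9.93 to 9.98; the other stress values were 9.58 and 9.57.

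The cyclins, Foxm1 and Cdca3 were lower in 5 of 5, each without overlap, with a median of -0.28. Ccna2, cyclin A2, which serves both S phase and mitotic entry, stood at 11.89, 11.998 and 11.91 in control and 11.56, 11.73 and 11.58 in stress (difference -0.31 ± 0.062, adjusted p = 0.111). Ccnb2, a B-type cyclin, stood at 10.05, 10.06 and 9.99 against 9.78, 9.79 and 9.85 (-0.23 ± 0.050, adjusted p = 0.120). Both sets were tight, with an SD of at most 0.093 in either group. Ccnb1, the main partner of Cdk1, differed by -0.28 (adjusted p = 0.137), Foxm1, the forkhead factor that activates late cell cycle genes, by -0.32 (adjusted p = 0.158) and Cdca3, a trigger of mitotic entry, by -0.22 (adjusted p = 0.255).

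The kinesins, motors that slide or depolymerize spindle microtubules, were lower in 5 of 5 with a median of -0.24. Kif20a, a motor of the central spindle needed for cytokinesis, had 10.85, 10.95 and 10.87 in control and 10.48, 10.70 and 10.42 in stress, a difference of -0.35 ± 0.079 (adjusted p = 0.120). Kif23, which forms centralspindlin with Racgap1, had 10.79, 10.88 and 10.82 against 10.48, 10.71 and 10.49 (-0.27 ± 0.071, adjusted p = 0.152). In both genes stress replicate 2 was the highest of its group and still below every control. Kif4 (-0.21), a chromosome-bound motor, and Kif2c (-0.15), a microtubule depolymerase, did not overlap either; Kif11 (-0.24), which pushes the spindle poles apart, did, with stress replicate 2 at 10.87, level with the lowest control.

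Of the proteins that nucleate and bundle spindle microtubules, all 3 were lower without overlap. Hmmr had 10.51, 10.63 and 10.57 in control and 10.36, 10.39 and 10.25 in stress, a difference of -0.24 ± 0.059 (adjusted p = 0.139). Tpx2, the activator of Aurora A on the spindle, had 11.35, 11.41 and 11.27 against 11.00, 11.18 and 11.04 (-0.27 ± 0.066, adjusted p = 0.140). Nusap1 differed by -0.20 (adjusted p = 0.235), with stress replicate 2 at 10.61 close under the lowest control of 10.64.

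Kinetochore and centromere genes were lower in 8 of 8 with a median of -0.22, and 5 had no overlap. Mad2l1, the checkpoint protein that sequesters Cdc20, had 10.33, 10.33 and 10.30 in control and 9.97, 9.999 and 9.87 in stress. Its difference of -0.37 ± 0.053 (1.29-fold lower) had the smallest p of the 43 (limma adjusted p = 0.0769), and its controls lay within an SD of 0.017. Nuf2, a subunit of the Ndc80 complex that grips microtubules, had 9.80, 9.76 and 9.81 against 9.40, 9.54 and 9.40 (-0.34 ± 0.058, adjusted p = 0.0947).

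The partners of Nuf2 in that complex had smaller differences with wider errors: Ndc80 -0.20 ± 0.098, Spc24 -0.19 ± 0.071 and Spc25 -0.23 ± 0.11. The groups overlapped for Ndc80 and Spc25. Cenpe, a kinetochore motor, differed by -0.31 (adjusted p = 0.180), Cenpa, the histone that marks the centromere, by -0.15 (adjusted p = 0.255) and Cenpf by -0.14 (adjusted p = 0.478). Cenpf and Spc25 were also among the 6 genes whose difference turned positive with the neutrophil covariate (0.142 and 0.096); Cenpf turned with the muscle covariate as well (0.016).

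The chromosomal passenger complex corrects faulty attachments and later acts at the cleavage site. Birc5, survivin, had 10.27, 10.22 and 10.25 in control and 9.82, 9.96 and 9.92 in stress, a difference of -0.34 ± 0.055 (1.27-fold lower, adjusted p = 0.0947). Cdca8, borealin, had 9.74, 9.67 and 9.71 against 9.42, 9.50 and 9.38 (-0.27 ± 0.054, adjusted p = 0.111). The scaffold Incenp differed by -0.29 (adjusted p = 0.135), so that with Aurkb all 4 subunits of the complex were lower without overlap, with a median of -0.28.

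Genes of anaphase were lower in 4 of 4 without overlap, with a median of -0.23. Cdc20, the coactivator of the anaphase-promoting complex, had 10.39, 10.50 and 10.40 in control and 10.04, 10.21 and 10.15 in stress (-0.30 ± 0.063, adjusted p = 0.118). Pttg1, securin, had 9.62, 9.54 and 9.52 against 9.39, 9.31 and 9.42 (-0.19 ± 0.057, adjusted p = 0.180). It was the 1 gene of the 43 with its lowest value in stress replicate 2. Espl1, the separase that securin restrains, differed by -0.27 (adjusted p = 0.186), with control replicate 1 at 10.19 above the other controls of 9.94 and 9.91. Ube2c, the ubiquitin-conjugating enzyme of the same complex, had the difference nearest to 0, -0.11 ± 0.051 (adjusted p = 0.327).

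The cytokinesis genes had the median nearest to 0 of the 9 functional groups, -0.19, with 2 of 4 free of overlap. That ranking holds for this grouping only, since Kif20a (-0.35) and Kif23 (-0.27), also of the central spindle, were counted as kinesins. Racgap1, a subunit of centralspindlin, had 10.95, 11.04 and 10.99 in control and 10.68, 10.77 and 10.70 in stress (-0.27 ± 0.050, adjusted p = 0.104). Ect2, which Racgap1 recruits to the central spindle, had 10.74, 11.04 and 10.83 against 10.62, 10.72 and 10.55 (-0.24 ± 0.085, adjusted p = 0.226). Both were free of overlap, though in Ect2 control replicate 1 lay just above stress replicate 2. Anln, anillin, a scaffold of the contractile ring, had the largest p of the 43, with 12.20, 12.37 and 12.31 against 12.04, 12.21 and 12.29 (-0.11 ± 0.079, adjusted p = 0.50). Prc1, which bundles the central spindle, differed by -0.14 (adjusted p = 0.336); for both Anln and Prc1 stress replicate 3 was the highest of its group and lay among the controls.

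The chromosome proteins Top2a and Mki67 are widely used markers of proliferating cells. Top2a, the topoisomerase that untangles sister chromatids, had 13.45, 13.50 and 13.46 in control and 13.24, 13.34 and 13.23 in stress (-0.20 ± 0.053, adjusted p = 0.154), without overlap. Mki67, the Ki-67 antigen that coats mitotic chromosomes, had 13.60, 13.81 and 13.57 against 13.40, 13.60 and 13.28 (-0.23 ± 0.10, adjusted p = 0.292). Its difference was similar but its errors were wider, and stress replicate 2 lay among the controls.

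**Figure D4:**
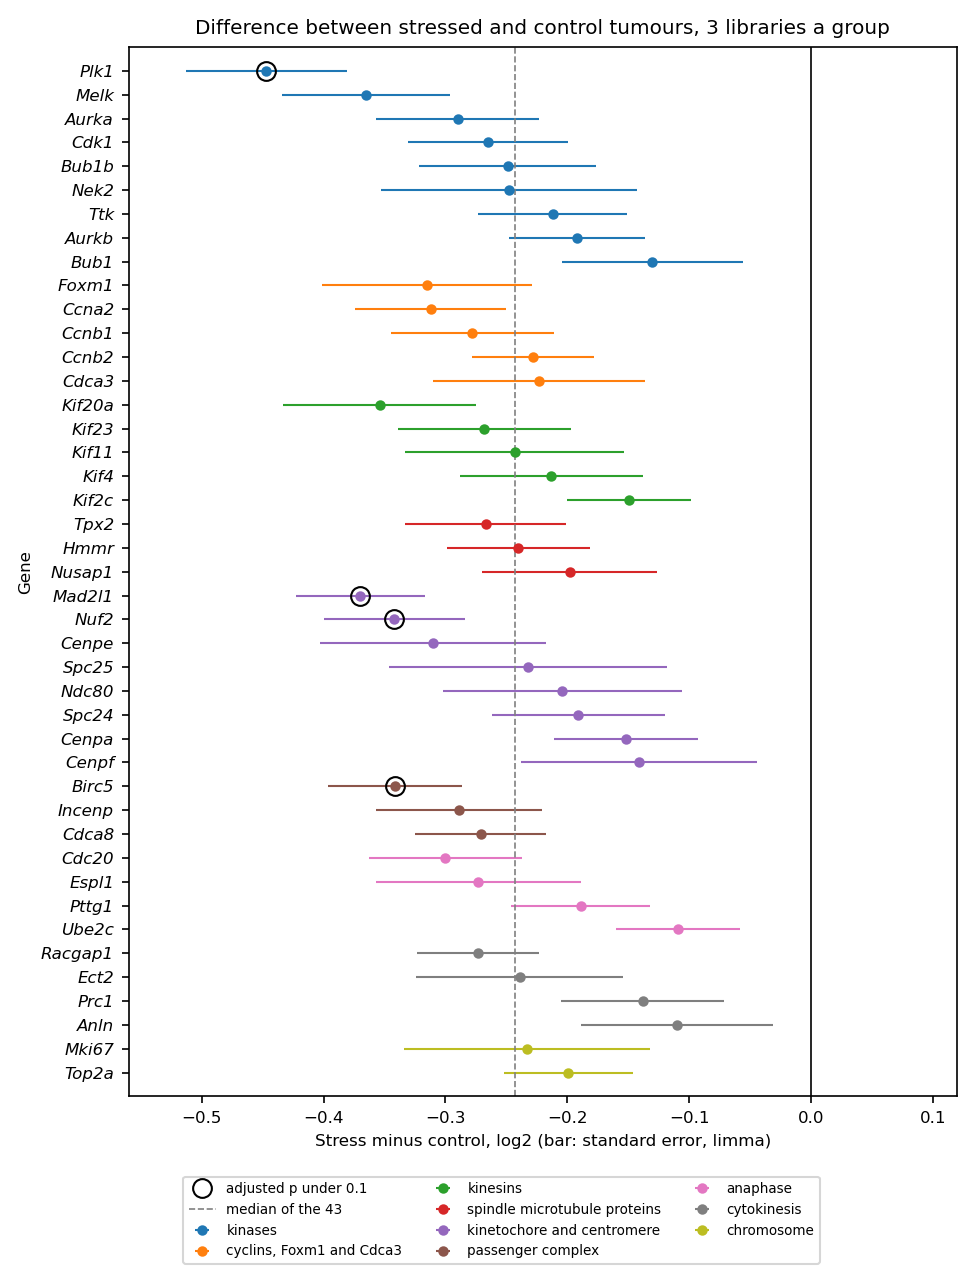
Points give stress minus control on the log2 scale for each of the 43 genes with its standard error from limma, coloured by function; rings mark an adjusted p under 0.1 and the dashed line the median of -0.24. All points lie below 0, from -0.45 for Plk1 to -0.11 for Ube2c and Anln.

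The size of the difference did not follow the mean log2 value of the gene. The median was -0.22 in the 14 genes with the lowest values (8.43 to 9.88), -0.27 in the next 15 and -0.26 in the 14 with the highest (10.71 to 13.54). All genes tested in these same ranges had medians of 0.001, 0.018 and 0.036.

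Other mitotic genes, grouped by complex or function, were lower in 95 of 116, with a median of -0.11, and 3 passed an adjusted p of 0.1. These lists too were chosen with earlier results of these data known. Other spindle and cytokinesis genes were lower in 19 of 21 with a median of -0.22; the smallest p-values belonged to the kinesin Kif15 (-0.40, adjusted p = 0.0769), the spindle protein Spag5 (-0.34, adjusted p = 0.0947), the importin Kpna2 (-0.36) and Arhgap11a (-0.25). Mitotic entry switches were lower in 12 of 16 with a median of -0.14, led by Gtse1 (-0.39, adjusted p = 0.0769), Ccnf (-0.27), the inhibitory Cdk1 kinase Pkmyt1 (-0.24) and the Cdk subunit Cks1b (-0.21). Other kinetochore and centromere genes were lower in 29 of 30 with a median of -0.12, led by Mis12 (-0.33), Knl1 (-0.27), Mis18a (-0.21) and Cenpw (-0.21), none past 0.1.

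Condensin compacts chromosomes and cohesin holds sister chromatids together, also in cells that are not in mitosis. Condensin and cohesin genes were lower in 15 of 19 with a median of -0.09, led by Smc2 (-0.28), Sgo1 (-0.22), Cdca5 (-0.18) and Sgol2a (-0.18). Genes of the anaphase-promoting complex and its coactivator Fzr1 were lower in 9 of 15 and without overlap in 13.3%, close to the 49.4% and 12.3% of all genes, with a median of -0.03. Among them Fzr1 was at -0.22, Cdc23 at -0.18, Anapc5 at -0.08 and Anapc2 at 0.15. Factors that bind the promoters of late cell cycle genes were lower in 11 of 15 with a median of -0.07, led by B-Myb, Mybl2 (-0.24), Tfdp1 (-0.20), Lin9 (-0.19) and E2f4 (-0.14). None of these 3 lists had a gene past an adjusted p of 0.1.

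The 25 DNA replication genes, active in S phase, were lower in 25 of 25 with a median of -0.25, and all stress libraries lay below all control libraries for 22. Rrm2, the subunit of ribonucleotide reductase, differed by -0.45 (adjusted p = 0.0647), the replication licensing factor Cdc6 by -0.47, thymidylate synthase, Tyms, by -0.33 and the primase subunit Prim1 by -0.28. The mean of the mitotic genes minus the mean of the replication genes was 0.425, 0.389 and 0.433 in control and 0.330, 0.456 and 0.457 in stress. The group means of that difference were 0.416 ± 0.023 (SD, n = 3) and 0.414 ± 0.073, a difference of -0.002; stress replicate 1 lay below the controls and the other stress libraries above them.

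**Figure D5:**
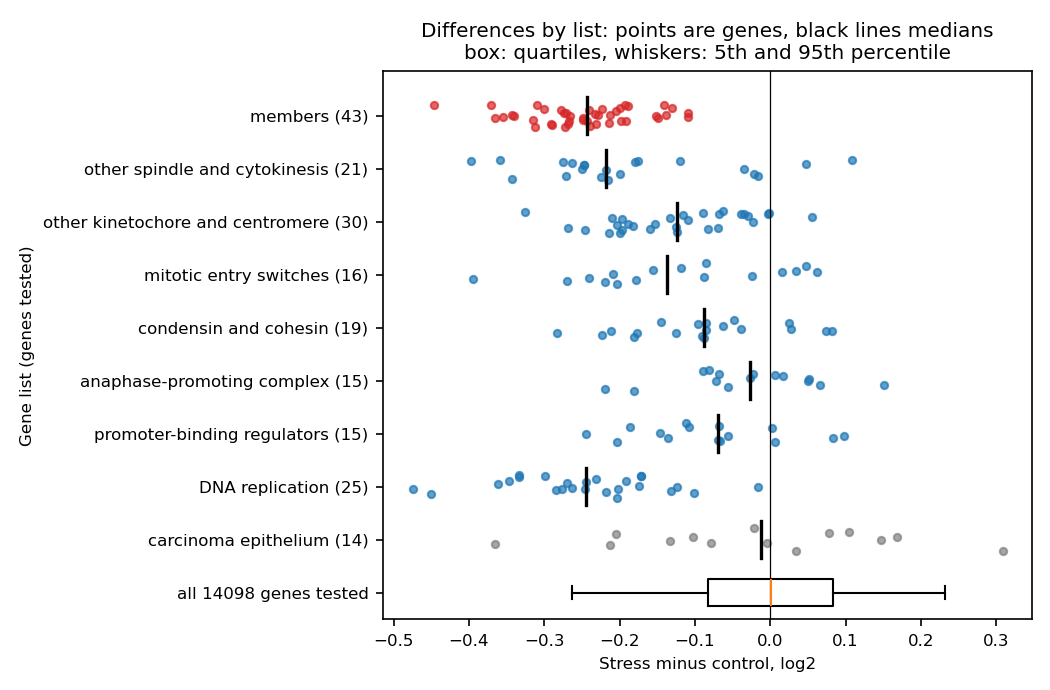
Each point is a gene placed by its difference between stress and control on the log2 scale, in rows by list with black median lines; the box gives the quartiles and the 5th and 95th percentiles of all 14098 genes. The 43 genes and the DNA replication genes lie wholly below 0, the other mitotic lists reach above it, and the carcinoma epithelium markers spread on both sides.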

How the data were processed

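The analysed table gives 1 value per gene for 6 mRNA libraries; the 6 miRNA libraries are not used here. Its values are on a log2 scale, normalized by the authors before they were deposited, although it is named as counts: they are fractional, run from -1.97 to 17.85, and are 0 in all libraries or in none. The base was taken to be 2, and the depth is unknown. Per the submitters' processing notes, bcl2fastq, kallisto 0.46.1 and the build mm10 were used; how the values were transformed is not stated there. The median range over libraries was 0.0773 for genes with a mean of 2 to 3 and 0.262 for those at 9 to 10.

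Of 35453 rows, 12658 listed at 0 and 26 bearing a date in place of a symbol were left out. The 14098 genes with a mean of at least 4 were fitted with limma 3.58.1 in R 4.3.3 (lmFit, eBayes with trend and robust), stress against control, two-sided, without covariates, with Benjamini-Hochberg adjustment over all of them. The fit was tested on simulated data. Alternatives changed the normalization, the filter, the variance model, the covariate, the reference, the replicate block and the libraries kept.

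The genes, their functional groups and all lists were chosen with earlier results of these data known. Library values are given for genes past an adjusted p of 0.1, for the 2 genes of each functional group with the smallest p, and for the gene with the largest p; of each other mitotic list and the replication list the 4 genes with the smallest p are named, and of the epithelium and neutrophil markers the 2 with the highest mean. Promoter windows came from RefSeq (GRCm38.p6) by symbol, and 32 of 38 ran in the direction of, and matched the 5′ part of, a GENCODE M21 transcript.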

Additional observations from a re-analysis of the deposited data

How the results depend on the processing

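No gene of the 43 was called at an adjusted p of 0.05 under any of the 15 alternatives. Of 645 values of single genes under them, 638 kept their direction and 7 turned. With the neutrophil covariate Nek2 (0.024), Kif11 (0.009), Cenpf (0.142), Ndc80 (0.012), Spc25 (0.096) and Mki67 (0.026) became positive, and with the muscle covariate Cenpf (0.016) did. The depth behind the values is unknown, so no counting error can be set beside them.

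The count of the 43 called lower at 0.1, 4 as reported, was 8 after quantile normalization, 8 with a mean of at least 6, 2 without a variance trend, 1 relative to the epithelium markers, and 0 without the filter, with either covariate or with the replicate block. Without single libraries it ran from 0 to 2. Over all genes, 48 were called lower at 0.1 as reported, and 101, 108, 28 and 137 in the first 4 of these settings. Without the filter they numbered 11, and with either covariate or the replicate block 0. Without single libraries they ran from 0 to 108. All genes called at 0.05, 5 as reported, numbered 8 after quantile normalization, 11 with a mean of at least 6, 2 without a variance trend, 216 relative to the epithelium markers, and 0 with either covariate or with the replicate block; without single libraries they ran from 0 to 5. The count at an unadjusted p of 0.05, 35 as reported, was 18 with the muscle covariate, 8 with the neutrophil covariate and 12 relative to the epithelium markers, where genes without overlap numbered 8. Of all 14098 genes, 1290 were lower at that p as reported, and 622, 540 and 463 in these settings. Relative to the epithelium markers, 354 of all genes were lower without overlap, against 1733 as reported. The median difference was -0.172 with the muscle covariate and -0.131 with the neutrophil covariate (mean -0.134). The cause was not tested.

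No pairing of the samples by replicate number was seen. Same-numbered libraries had correlations of their deviations from the group means of -0.079, 0.082 and -0.018. Those of differently numbered libraries ran from -0.136 to 0.155. With 3 libraries a group, these values cannot exclude a pairing.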

Other observations

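Outside all of the lists, the genes whose log2 values over the 6 libraries were most like the mean of the 43 mitotic genes were Hnrnpd, an RNA-binding protein that controls mRNA decay (Pearson r = 0.9997), the alpha-tubulin Tuba1a (0.9980), the deubiquitinase Usp1 (0.9970), Reep1 (0.9905), Marcks (0.9892), the PCNA unloader Atad5 (0.9891), Qsox2 (0.9889) and Magee1 (0.9883). Most unlike it were Arhgap6 (-0.9943), Chchd5 (-0.9942), Ace (-0.9933) and Pyroxd2 (-0.9932). These values are a description over 6 libraries that fall into the 2 groups, share their normalization and were searched over all genes, so no p is given. Tuba1a differed by -0.43 (adjusted p = 0.0947) and Marcks by -0.33 (adjusted p = 0.0988), while Hnrnpd differed by -0.20 (adjusted p = 0.151).

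Among the 43 genes, likeness to the mean of the others ran from r = 0.547 for Anln to 0.999 for Top2a. With the group means removed it ran from -0.815 for Pttg1 to 0.997 for Top2a and Kif20a, again over 6 libraries and without a p.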
